A study of Mus musculus with 4 samples.

Results

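The genes described here encode histone-modifying enzymes: deacetylases, acetyltransferases, methyltransferases and demethylases. They were chosen by name from a deposited table of DNA methylation in the mouse hippocampus: gene names with Hdac, Sirt, Setd, Mll, Kmt, Kat or Kdm followed by a digit, and 11 single genes such as Ezh2, Ehmt1, Ep300 and Dot1l. The choice used no measured value, though it was made with earlier results of these data known. It found 62 genes of the 25182 named in the table, with 1490 regions of 849172, and 1489 of these regions had a value in all 4 libraries. The table uses older symbols for 5 of them, Mll1 (now Kmt2a), Mll2 (Kmt2d), Mll3 (Kmt2c), Mll5 (Kmt2e) and Setd8 (Kmt5a), and the current ones are used below.

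The levels come from whole-genome bisulfite sequencing of tissue from the CA1 field of the hippocampus, in C57B6/J mice of 117 days. One group, labelled Tet2+f_Camk2aCre, has 2 libraries, and the other, labelled Tet2+f, has 2 as well. Both carry Tet2+f, read here as one wild-type and one floxed allele of Tet2. Cre under the promoter of Camk2a acts in excitatory forebrain neurons, so the first group is the one in which these neurons have less Tet2. Tet2 encodes a dioxygenase that oxidises 5-methylcytosine, and the comparison asks where methylation differs when its dose is lower. No group has Cre without Tet2+f, so Cre itself and the lower Tet2 dose cannot be told apart. The labels do not say that replicates stem from separate mice, so a p-value covers the spread between these 4 libraries alone, and that may be technical. In bulk tissue the share of a cell type and the level per cell cannot be told apart either.

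Histone acetyltransferases add acetyl groups to lysines of histone tails, a mark of open chromatin, and deacetylases remove them. Lysine methyltransferases and demethylases write and erase methyl marks whose effect depends on the lysine: methylation of H3K4 marks active promoters, H3K36 transcribed gene bodies, and H3K9 and H3K27 silent chromatin. Several of these enzymes, such as HDAC2, KMT2A, EHMT1 and the acetyltransferase EP300, are known for roles in memory or in intellectual disability. DNA methylation at their own gene starts has a usual form in mammals: a CpG-rich start is mostly free of methylation, and the body of the gene is mostly methylated.

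The histone-modifying enzyme genes showed that form in all 4 libraries. Their 1489 regions averaged 68.5% and 68.5% methylation in the Tet2+f_Camk2aCre libraries, against 68.3% and 68.4% in the Tet2+f libraries. The Tet2+f_Camk2aCre libraries stood 0.136 percentage points above the Tet2+f libraries, and the groups were just apart (68.455% against 68.45% at the closest). The SD was 0.0582 points within the Tet2+f_Camk2aCre group and 0.128 points within the Tet2+f group (n = 2 each). Over all 849014 complete regions of the table the difference between the groups was -0.00683 points. Of the member regions, 864 lay at 80% or more over the 4 libraries, 325 at 50 to 80%, 61 at 20 to 50% and 239 below 20%. The last class made up 16.1% of the member regions and 6.57% of all regions, and its member regions were short, with a median length of 288 bp against 2066 bp for all member regions. The table assigns at least 1 region below 20% to 57 of the 62 genes, and none to Hdac4, Hdac9, Sirt2, Sirt5 and Kdm1b. This assignment can leave out regions at a gene's start, as the start windows below show for Hdac4, Sirt2 and Kdm1b. Averaged by gene, Sirt5, a mitochondrial deacylase of the sirtuin family, was the most methylated, at 92.4% and 91.3% in the Tet2+f_Camk2aCre libraries and 90.7% and 92.4% in the Tet2+f libraries. All 15 regions that the table assigns to Sirt5 lay at 80% or more. Around its start, as defined below, Sirt5 averaged 45.8% and 44.9% against 43.8% and 44.4%, so its rank rests on the assigned regions. Suv39h1, an X-linked H3K9 methyltransferase, was the least methylated, at 14.4% and 12.4% against 10.6% and 12.5%, from the single region the table assigns to it. Between these ends, 8 genes averaged above 80% and 7 below 50%.

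**Figure D1:**
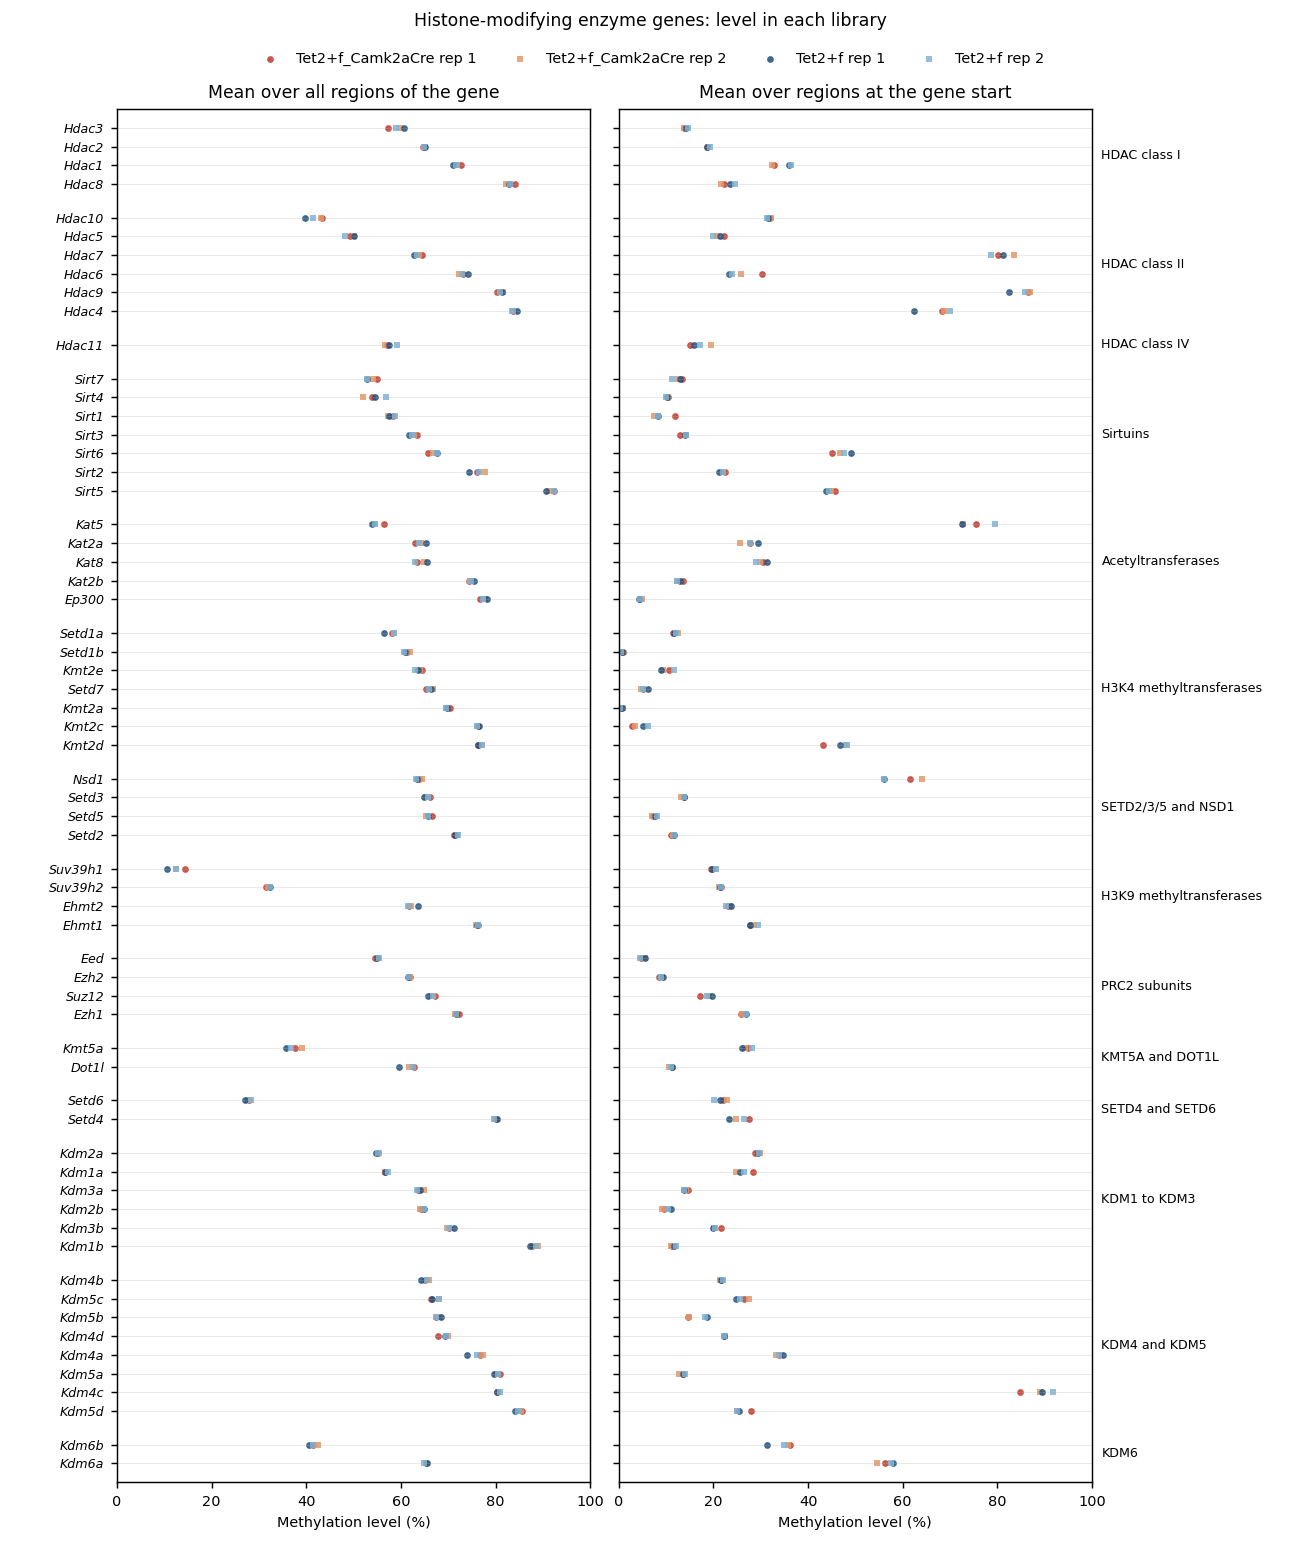
Methylation level (%) of the 62 histone-modifying enzyme genes in each of the 4 libraries, as the mean over all regions of the gene (left) and over regions at its start, 2000 bp before to 500 bp after (right), ordered by family. Points are single libraries with no error bars. The 4 libraries of a gene lie close together, while genes range from Suv39h1 below 20% to Sirt5 above 80%, and starts from Kmt2a and Setd1b below 5% to Kdm4c above 80%.

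At the gene start, taken as every region that touches the stretch from 2000 bp before to 500 bp after it, 27 of the 62 genes averaged below 20% (43.5%, against 24.0% of 21838 genes), 28 lay at 20 to 50%, and 7 at 50% or more (11.3%, against 42.7%). A closer view came from the RefSeq start windows of GRCm38.p6, each of 300 bases from 250 before to 50 after a transcript start. There were 71 such windows for 51 of the member genes, with a median of 23 CpG dinucleotides, against 7 over all 32807 windows. The windows of these genes had a median level of 0.955%, and 55 of 71 were below 20% (77.5%, against 36.5% of all windows). Low windows were also found in 3 of the genes with no assigned region below 20%. Their means over the 4 libraries were 0.284% for Hdac4, 0.955% for Sirt2 and 0.390% for Kdm1b. The window of Sirt5 averaged 34.4%, and those of Hdac9 85.5% and 49.8%. The level followed the number of CpGs in the window. Of 40 member windows with 21 or more CpGs, 37 were below 20%, with a median of 0.526%. Of 7 member windows with 0 to 5 CpGs, none was below 20%, and their median was 70.7%. Windows of all genes followed the same order, from a median of 80.1% at 0 to 5 CpGs to 0.997% at 21 or more. The 4 libraries shared these levels, and no test was made of them.

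**Figure D2:**
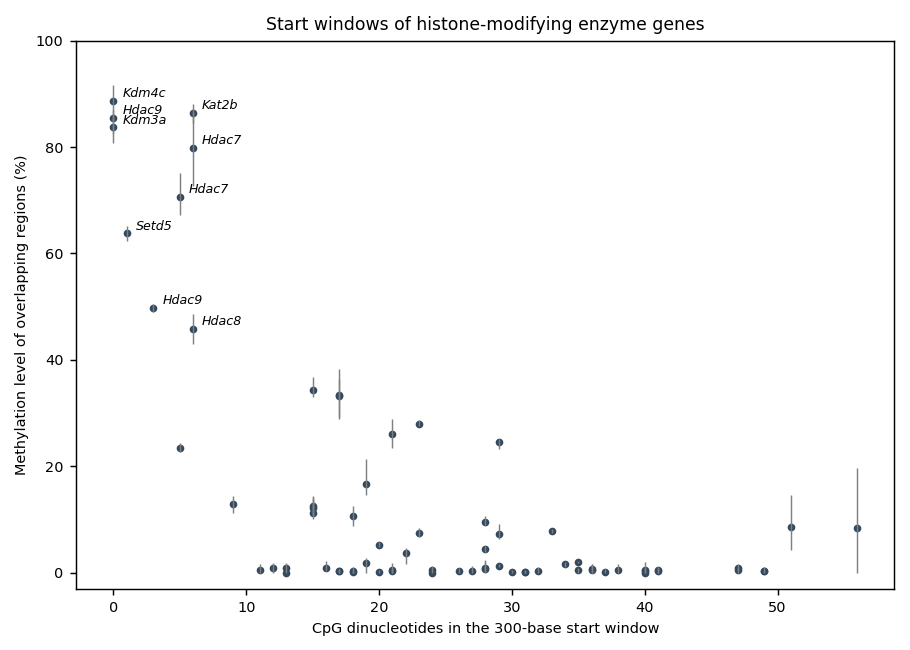
Methylation level (%) of the regions overlapping each of 71 RefSeq start windows, weighted by overlap, against the number of CpG dinucleotides in the 300 bases. Points are means over the 4 libraries and vertical lines run from the lowest to the highest library. All windows with more than 10 CpGs are below 40%, and the named windows at 40% or more have 6 CpGs or fewer.

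Kdm4c, which demethylates H3K9 and H3K36, shows both ends of that range within one gene. It has 2 RefSeq starts 9382 bp apart on chromosome 4. Coordinates here and below are on mm10, the assembly GRCm38. The upstream window, chr4:74242247-74242546 on the plus strand, holds 0 CpGs, and the downstream one, chr4:74251629-74251928, holds 28. Both are shown because their base composition and their levels differ so widely. Each is written 5′ to 3′ with CpG dinucleotides in capitals:
Kdm4c upstream start: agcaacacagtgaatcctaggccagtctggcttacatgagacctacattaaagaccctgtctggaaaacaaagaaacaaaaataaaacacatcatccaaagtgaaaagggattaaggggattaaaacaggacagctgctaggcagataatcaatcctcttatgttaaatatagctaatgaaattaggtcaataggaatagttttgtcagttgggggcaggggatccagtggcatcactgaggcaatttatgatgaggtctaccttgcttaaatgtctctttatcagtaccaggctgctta
Kdm4c downstream start: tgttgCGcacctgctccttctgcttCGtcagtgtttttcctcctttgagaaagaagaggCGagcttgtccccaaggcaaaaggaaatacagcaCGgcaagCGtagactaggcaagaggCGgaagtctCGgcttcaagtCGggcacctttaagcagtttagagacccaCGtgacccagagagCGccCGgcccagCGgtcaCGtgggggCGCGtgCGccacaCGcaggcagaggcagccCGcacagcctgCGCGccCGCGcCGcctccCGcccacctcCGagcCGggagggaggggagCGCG

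The region over the upstream Kdm4c start read 84.7% and 89.1% in the Tet2+f_Camk2aCre libraries, against 89.5% and 91.7% in the Tet2+f libraries. At the downstream start the level was 1.92% and 0.0307%, against 0% and 1.10%. Each library thus held a nearly unmethylated start and a highly methylated one in the same gene. Of the 7 genes with a mean of 50% or more at the gene start, 5 had such a second, CpG-rich start further downstream. For Hdac7, a class II deacetylase, the upstream start with 6 CpGs read 72.7% and 83.3% against 86.6% and 77.1%, while the start 13007 bp downstream, with 31 CpGs, read 0.480% and 0.251% against 0% and 0%. Hdac4, another class II deacetylase, had 68.4% and 68.7% against 62.5% and 70.1% around the gene start, and its RefSeq window 15361 bp downstream, with 32 CpGs, had 0% in 3 libraries and 1.14% in Tet2+f replicate 1. Kdm6a, an X-linked H3K27 demethylase, averaged 56.3% and 54.5% against 58.0% and 57.6%, with a window 1713 bp downstream at 0% and 0% against 0.805% and 0.538%. The acetyltransferase Kat5 had 75.4% and 72.8% against 72.6% and 79.5% from 1 region upstream, with windows 1462 and 1812 bp downstream whose means over the 4 libraries were 1.79% and 7.20%. The 2 others among the 7 were Nsd1, described below, and Hdac9. Hdac9, a class II deacetylase, has a CpG-free window at its gene start, which read 86.5% and 86.99% against 82.5% and 85.9%. A mean around one annotated start therefore describes a different stretch from one gene to the next.

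Other genes had the reverse order, with the CpG-rich start first. Kat2b, an acetyltransferase, read 0% and 0% in the Tet2+f_Camk2aCre libraries and 1.63% and 0.278% in the Tet2+f libraries at its first start, with 11 CpGs, and 88.0% and 87.2% against 84.4% and 86.1% at a start 17352 bp further on, with 6 CpGs. Kdm3a, an H3K9 demethylase, had below 2% in every library in its 2 upstream windows, and 83.3% and 80.7% against 85.3% and 85.6% in a CpG-free window 23851 bp downstream. On the X chromosome, the windows of Kdm5c, Kdm6a and Hdac6 and the second window of Suv39h1 were below 1% in all libraries. The first window of Suv39h1, with 15 CpGs, read 14.4% and 12.4% against 10.6% and 12.5%, and the single window of Hdac8, a class I deacetylase, with 6 CpGs, read 44.5% and 43.1% against 46.9% and 48.6%. The Y-linked H3K4 demethylase Kdm5d had values in all 4 libraries. Its start window read 14.2% and 10.1% against 10.03% and 10.2%, and its gene mean was 85.6% and 85.3% against 84.1% and 84.8%.

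**Figure D3:**
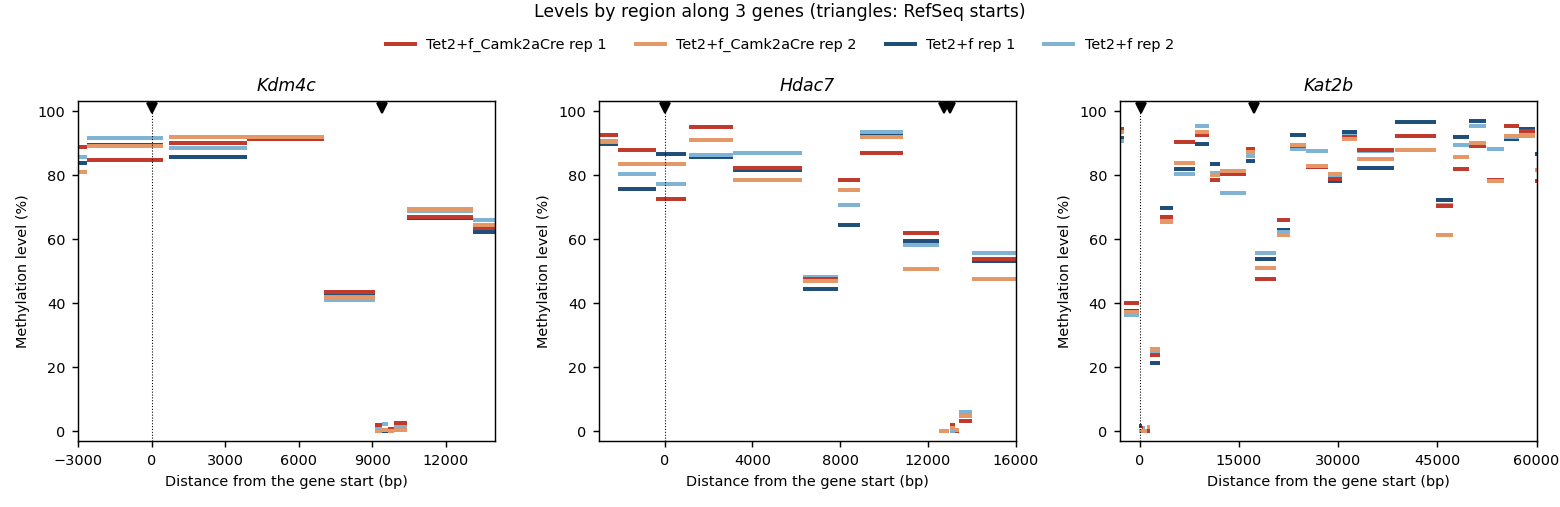
Methylation level (%) of each region along Kdm4c, Hdac7 and Kat2b, by distance from the gene start (bp, positive downstream). Each horizontal bar is 1 region in 1 library, without error bars, and triangles mark RefSeq starts. In Kdm4c and Hdac7 the first triangle lies over regions above 60% and the next ones over regions near 0%, and in Kat2b the order is reversed. In Kat2b, before the right edge, the Tet2+f_Camk2aCre bars lie below the Tet2+f bars in neighbouring regions.

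No histone-modifying enzyme gene passed the test between Tet2+f_Camk2aCre and Tet2+f. Levels were compared with limma on the log2 ratio of methylated to unmethylated share, and p-values were adjusted by Benjamini-Hochberg over every region, gene or gene start of the table. Of 1489 member regions, 0 had an adjusted p below 0.05 (0% of all 849014 regions did), and the smallest was 0.937, as over the whole table. In simulated data limma called 0% of changed regions at this threshold even with 60 points added, so 0 calls do not show that the groups were alike. At an unadjusted p below 0.05, 99 member regions, or 6.65%, were called, against 4.60% of all regions. Of these, 51 were higher and 48 lower with Cre, where 2.25% and 2.35% of all regions were called. The member regions include more low-level ones than the table, and among regions below 20% the shares were 12.97% of 239 member regions and 11.1% of 55745 in all. Most of the 99 calls, 58, lay at 80% or more, where the shares were 6.71% of 864 member regions and 4.85% of 536977 in all. At 20 to 50% they were 4.92% and 3.10%, and at 50 to 80% they were 2.15% and 2.62%. Of the 99, 20 had exactly 0% in both libraries of a group, where a small change weighs heavily on this scale and the number of reads is unknown. The libraries of both groups did not overlap in 259 member regions that were higher with Cre (17.4%, against 15.9% of all regions) and in 229 that were lower (15.4%, against 16.8%). In all, 751 member regions were higher (50.4%, against 49.2%), 707 lower and 31 at 0% in every library. A difference of 10 points or more was found in 17 member regions, 10 higher and 7 lower (1.14%, against 0.875%). Apart from the unadjusted calls, these shares lie within 2 percentage points of those of the whole table.

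Averaged by gene, 33 of the 62 genes were higher and 29 lower with Cre, and 53.2% higher compares with 51.1% of all 25181 genes. None passed at an adjusted p (0% of all genes did, smallest member value 0.949), and none at an unadjusted p below 0.05, which 5.30% of all genes reached (2.65% in each direction). The groups did not overlap in 14 genes that were higher and 8 that were lower, or 22.6% and 12.9%, against 17.1% and 16.0% of all genes. Differences ran from -2.73 points for Sirt4 to 2.68 points for Hdac10, and 48 of 62 were below 1 point in size. Around the gene start 30 genes were higher and 32 lower (48.4% higher, against 50.8% of 21838 gene starts). No gene start passed at an adjusted p (0% of all did, smallest member value 0.955), and 4 reached an unadjusted p below 0.05 (6.45%, against 5.14%). These were Nsd1, which was higher (2.46% of all were called in that direction), and Kmt2c, Kdm5b and Hdac1, which were lower with Cre (2.68%). Groups did not overlap at 11 starts that were higher and 15 that were lower, or 17.7% and 24.2%, against 16.9% and 16.8%.

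**Figure D4:**
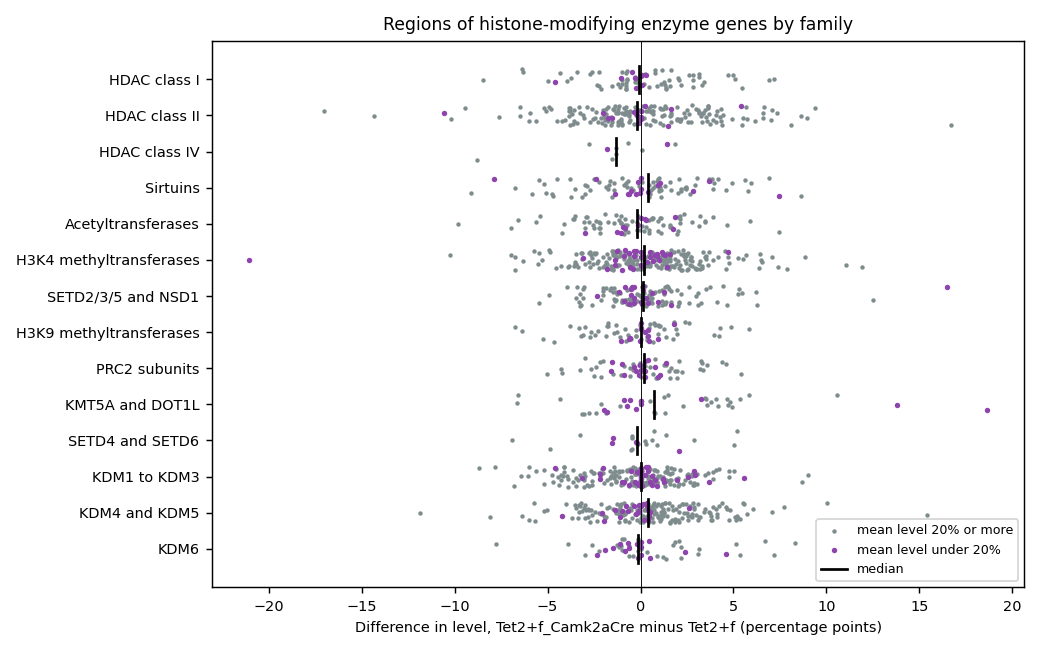
Difference in methylation level (percentage points, Tet2+f_Camk2aCre minus Tet2+f) of each of the 1489 regions, by enzyme family. Points are regions, purple where the mean level is below 20%, and black bars are family medians. Medians lie near 0 in all families, and the farthest points are a Kmt2c region at -21.0 points and a Kmt5a region at 18.7 points.

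Among class I deacetylases, which are zinc-dependent enzymes, all 4 gene starts were lower with Cre, by a median of 1.43 points. All 6 class II gene starts were higher, by a median of 2.09 points. For comparison, 50.8% of all gene starts were higher. No gene of either class passed the test, and with single libraries left out the counts higher were 0 to 1 of 4 and 5 to 6 of 6. Over whole genes both classes were split evenly, with 2 of 4 and 3 of 6 higher. Hdac1 had the largest class I difference at its start, at 32.9% and 32.4% in the Tet2+f_Camk2aCre libraries, against 35.9% and 36.3% in the Tet2+f libraries. The groups did not overlap, and limma's p was 0.0445 unadjusted and 0.955 adjusted. The region over this start was at 0% in all 4 libraries, and the one directly upstream read 1.04% and 0.957% against 0% and 1.79%. The next region upstream read 44.9% and 43.0% against 54.2% and 51.1%, and the one downstream 31.8% and 31.2% against 38.3% and 41.6%. Hdac2, the deacetylase most studied in memory, had 18.6% and 18.96% at its start against 18.7% and 19.2%, with overlapping groups. Hdac3 had 13.8% and 13.7% against 14.3% and 14.7%. Its gene mean was 57.2% and 59.8% against 60.7% and 59.0%, where the groups overlapped.

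In class II the largest difference at a gene start was that of Hdac6, an X-linked tubulin deacetylase. Its start averaged 30.2% and 25.8% in the Tet2+f_Camk2aCre libraries, against 23.4% and 24.0% in the Tet2+f libraries. The groups did not overlap, and limma's p was 0.0641 unadjusted and 0.955 adjusted. The difference of 4.34 points was 2.18 points without Tet2+f_Camk2aCre replicate 1. The RefSeq start window, chrX:7947840-7948139 on the minus strand with 20 CpGs, is shown because a region upstream of it and one further downstream differed in opposite directions while it was near 0%:
Hdac6 start: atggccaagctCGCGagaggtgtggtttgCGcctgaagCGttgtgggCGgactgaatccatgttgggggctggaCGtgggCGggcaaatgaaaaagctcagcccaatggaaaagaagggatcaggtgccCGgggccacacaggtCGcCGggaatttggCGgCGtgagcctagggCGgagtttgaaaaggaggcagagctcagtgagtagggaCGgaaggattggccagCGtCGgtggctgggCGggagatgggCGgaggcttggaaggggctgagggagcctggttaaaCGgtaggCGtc

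The region holding most of the Hdac6 window was at 0% in all 4 libraries. The next one upstream read 37.0% and 18.2% in the Tet2+f_Camk2aCre libraries against 13.4% and 18.1% in the Tet2+f libraries, so that Tet2+f_Camk2aCre replicate 1 alone stood apart. A region 610 to 2026 bp downstream of the start, chrX:7946021-7947437, read 50.6% and 49.2% against 68.9% and 65.0%. Its difference of -17.0 points was the largest negative difference but one among member regions, and the groups did not overlap (limma, adjusted p = 0.937). Hdac5 held regions that differed both ways. The region chr11:102211913-102213372, inside the gene, read 47.7% and 57.0% against 32.7% and 38.6%. Further along, chr11:102194975-102196227 read 62.0% and 72.7% against 81.1% and 82.3%, and chr11:102227218-102229136, near the start, read 3.81% and 9.73% against 20.3% and 14.4%. In each of the 3 the groups did not overlap, the unadjusted p was 0.0195, 0.0172 and 0.0290 in that order, and the adjusted p was 0.937. The gene mean of Hdac5 was 49.2% and 50.01% against 49.97% and 48.2%, with overlapping groups. One more Hdac5 region, chr11:102215610-102217081, read 19.3% and 22.5% against 35.7% and 26.4%, with groups apart. These regions of Hdac5 and Hdac6 were picked for their size after their values were seen. Near its start, the Hdac5 region chr11:102229941-102230083, named for its small p, read 0% and 0% against 2.38% and 1.7% (limma, unadjusted p = 0.000847, adjusted p = 0.937).

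Hdac10, known as a polyamine deacetylase, had the largest positive difference of any member gene, at 43.4% and 43.1% against 39.7% and 41.4%. Its groups did not overlap, and limma's p over genes was 0.0582 unadjusted and 0.949 adjusted. Hdac9 and Hdac4 averaged 81.0 ± 0.858% and 83.5 ± 0.152% in the Tet2+f_Camk2aCre group, against 81.2 ± 0.305% and 84.1 ± 0.504% in the Tet2+f group (SD, n = 2 each). Hdac11, the single class IV enzyme, had 57.0% and 56.7% against 57.5% and 59.2%, a difference of -1.48 points (limma's adjusted p = 0.995).

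Sirtuins deacylate proteins with NAD as cosubstrate. Of the 7 sirtuin genes 4 were higher and 3 lower, and of their starts 5 were higher and 2 lower, with none past the test. The largest negative difference of any member gene was that of Sirt4, a mitochondrial sirtuin, at 53.9% and 52.0% in the Tet2+f_Camk2aCre libraries, against 54.6% and 56.7% in the Tet2+f libraries. The groups did not overlap, and the difference of -2.73 points had an unadjusted p of 0.115 and an adjusted p of 0.960 by limma. It was -1.65 points without Tet2+f replicate 2, -1.77 points without Tet2+f_Camk2aCre replicate 2 and -3.81 points without Tet2+f replicate 1. Sirt6, which deacetylates H3K9, had 65.7% and 66.7% against 67.5% and 67.7% over the gene, and 45.0% and 46.7% against 49.1% and 47.6% at its start. Sirt7, found in the nucleolus, had 55.0% and 54.2% against 52.7% and 52.8%. None of these 3 sets of libraries overlapped between groups at gene level, and the adjusted p was 0.960 to 0.973. Sirt1, a nuclear sirtuin studied in memory, averaged 58.4% and 57.3% against 57.5% and 58.7%, and Sirt2, abundant in oligodendrocytes, 76.1% and 77.8% against 74.4% and 76.5%. Their groups overlapped. One Sirt1 region just upstream of the start, chr10:63339202-63339370, had 0% and 0% against 2.33% and 2.44% (limma, adjusted p = 0.937). A change of 2.38 points so close to 0% is small in level.

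Among acetyltransferase genes 1 of 5 was higher and 4 lower with Cre, and 3 of 5 starts were higher, none past the test. Kat2b, also called PCAF, held a stretch in its body that was lower. The region chr17:53616611-53619138 read 89.1% and 89.9% in the Tet2+f_Camk2aCre libraries, against 96.8% and 95.4% in the Tet2+f libraries. The next region, chr17:53619260-53621771, read 78.4% and 78.2% against 88.2% and 88.0%. Groups were apart in both, by -6.61 and -9.79 points, with unadjusted p of 0.00286 and 0.00386 and an adjusted p of 0.937. The region before them, chr17:53614094-53616591, picked because it adjoins them, read 81.9% and 85.7% against 92.0% and 89.4%, a difference of -6.95 points. The region after them read 95.2% and 92.1% against 91.2% and 91.8%, where the groups were also apart, in the other direction. Over the whole gene Kat2b averaged 74.3% and 74.7% against 75.4% and 74.8%. Kat8, the H4K16 acetyltransferase MOF, had 1.67% and 1.86% against 0% and 0% in the region over its start, chr7:127912206-127912669 (unadjusted p = 0.000691). Kat2a, a close relative of Kat2b, had 63.1% and 64.2% against 65.3% and 63.9%, and Ep300, a coactivator recruited by CREB, 76.6% and 77.7% against 78.3% and 77.3%. The groups of both overlapped. Kat6b is not analysed here.

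The genes grouped by role as H3K4 methyltransferases had the lowest family median at the start, 5.28% over 7 genes, with 6 below 20%. Of these genes 4 were higher and 3 lower, and 3 starts were higher and 4 lower. The lowest p at a start was that of Kmt2c, an enzyme of enhancer H3K4 monomethylation. Its start averaged 2.78% and 3.35% in the Tet2+f_Camk2aCre libraries, against 5.17% and 6.15% in the Tet2+f libraries, with no overlap and limma's p of 0.00324 unadjusted and 0.955 adjusted. The difference came from 1 region of 9, chr5:25498778-25499012, which covers the start. It read 0% and 0% against 17.1% and 25%, the largest difference among all member regions at -21.0 points (limma, unadjusted p = 2.29e-05, adjusted p = 0.937). With another variance prior in limma, trended and robust, its adjusted p was 0.0732. The RefSeq start window, chr5:25498734-25499033 on the minus strand, is shown because all 235 bp of that region lie inside it, with 45 of its 56 CpGs:
Kmt2c start: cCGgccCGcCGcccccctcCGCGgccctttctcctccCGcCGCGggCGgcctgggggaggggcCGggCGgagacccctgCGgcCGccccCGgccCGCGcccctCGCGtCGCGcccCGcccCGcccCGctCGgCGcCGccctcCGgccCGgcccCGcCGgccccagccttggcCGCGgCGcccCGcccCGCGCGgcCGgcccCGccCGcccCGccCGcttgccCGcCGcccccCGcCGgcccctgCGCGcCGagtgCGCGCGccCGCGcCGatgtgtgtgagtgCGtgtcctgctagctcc

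The regions on either side of it in Kmt2c did not share the difference. The one upstream was at 0% in all 4 libraries, and the one downstream read 0% and 1% in the Tet2+f_Camk2aCre libraries against 0% and 0% in the Tet2+f libraries. From 1296 bp upstream to 1193 bp downstream of the start, every other region was below 5% in every library. The gene mean of Kmt2c was 76.2% and 76.0% against 76.5% and 76.2%. Setd1b, part of a COMPASS complex, had a region in its body, chr5:123163223-123163977, at 95.7% and 97.8% against 83.8% and 87.5%, with no overlap (unadjusted p = 0.00224, adjusted p = 0.937). Another of its regions, chr5:123148396-123149349, read 53.4% and 61.0% against 71.3% and 63.6%. Kmt2a, which is required for hippocampal memory in mice, averaged 70.3% and 69.5% against 69.6% and 69.4%, with overlapping groups. Kmt2d averaged 43.2% and 48.0% against 46.8% and 48.1% around its gene start, and 0% and 0% against 0% and 1.32% in a window 2872 bp downstream. A region in its body, chr15:98850560-98851440, read 73.4% and 71.1% against 50.1% and 70.6%, so most of that gap lay in Tet2+f replicate 1.

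The genes Setd2, Setd3, Setd5 and Nsd1 were grouped for H3K36 methylation, which SETD2 and NSD1 carry out, whereas SETD3 is known as an actin histidine methyltransferase. Of these genes 3 were higher and 1 lower, and 1 start was higher and 3 lower. Nsd1, mutated in Sotos syndrome in humans, had the largest positive difference at a gene start among the members, with 61.6% and 64.1% in the Tet2+f_Camk2aCre libraries, against 56.0% and 56.0% in the Tet2+f libraries. The groups did not overlap, and limma's p was 0.00953 unadjusted and 0.955 adjusted. At the edge between the methylated upstream stretch and the unmethylated island, 2 neighbouring regions were higher, both picked for size after their values were seen. The first, chr13:55209737-55210149, read 63.6% and 68.5% against 57.8% and 49.3%, and the second, chr13:55210162-55210367, read 17.2% and 19.9% against 0% and 4.17%. The next region into the island read 0% and 4.17% against 4% and 1.85%, and the one upstream of the edge 77.7% and 78.2% against 74.9% and 82.2%, both with overlap. One more region of Nsd1, chr13:55212394-55212605, had 1% and 1.5% against 0% and 0% (unadjusted p = 0.00329). Setd2 averaged 71.3% and 71.8% against 71.4% and 72.0%, and Setd5 66.5% and 65.3% against 65.6% and 65.7%. Their groups overlapped.

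**Figure D5:**
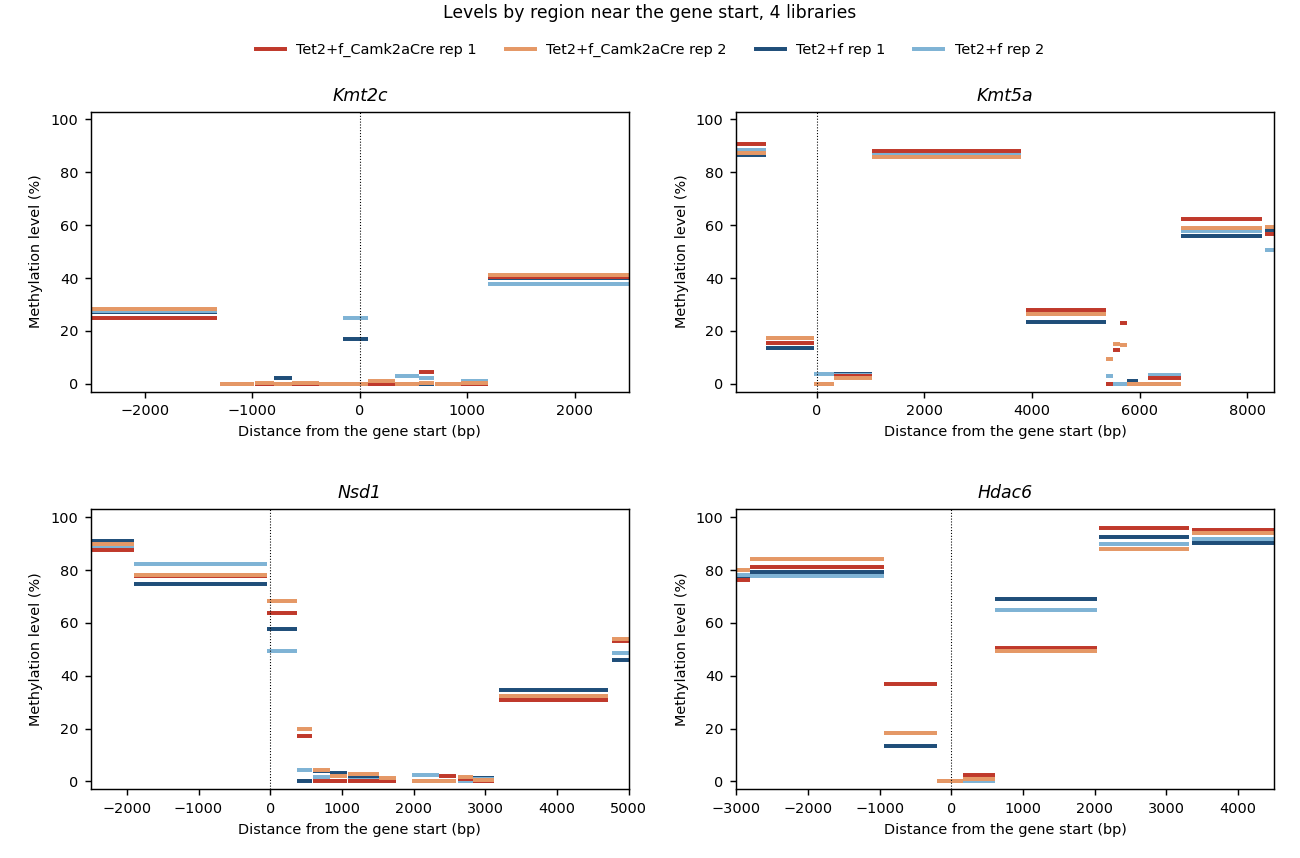
Methylation level (%) of each region near the starts of Kmt2c, Kmt5a, Nsd1 and Hdac6, by distance from the gene start (bp, positive downstream). Each horizontal bar is 1 region in 1 library, without error bars. In 1 region of Kmt2c the Tet2+f_Camk2aCre bars are at 0% and the Tet2+f bars at 17.1% and 25%. The Tet2+f_Camk2aCre bars of Kmt5a lie above in 2 neighbouring regions of its CpG-rich downstream start, those of Nsd1 lie above at the island edge, and those of Hdac6 lie below in the region at 610 to 2026 bp.

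Kmt5a, which monomethylates H4K20, held the 2 regions with the smallest p among those that were higher. The region chr5:124445445-124445567 read 12.6% and 15% in the Tet2+f_Camk2aCre libraries, against 0% and 0% in the Tet2+f libraries. Its neighbour, chr5:124445571-124445700, read 22.8% and 14.5% against 0% and 0%. The differences were 13.8 and 18.7 points, with unadjusted p of 1.04e-05 and 4.21e-05 and an adjusted p of 0.937 by limma. With the trended and robust prior, limma's adjusted p was 0.129 and 0.0961. Both regions lie at a RefSeq start 5569 bp downstream of the first one. Its window, chr5:124445249-124445548 on the plus strand, holds 51 CpGs and is shown because 104 bases and 23 CpGs of the first of these regions lie at its 3′ end:
Kmt5a downstream start: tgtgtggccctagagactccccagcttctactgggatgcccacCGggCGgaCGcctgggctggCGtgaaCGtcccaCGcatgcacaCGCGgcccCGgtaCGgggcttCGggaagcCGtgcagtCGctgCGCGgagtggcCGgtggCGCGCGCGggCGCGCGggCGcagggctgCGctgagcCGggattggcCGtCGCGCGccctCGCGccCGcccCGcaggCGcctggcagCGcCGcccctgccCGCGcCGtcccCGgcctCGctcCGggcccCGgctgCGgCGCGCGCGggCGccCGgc

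The region before the pair in Kmt5a read 0% and 9.52% in the Tet2+f_Camk2aCre libraries against 0% and 3% in the Tet2+f libraries, and the one after it 0% and 0% against 1.11% and 0%. These neighbours overlapped between groups. The mean around the first start of Kmt5a was 27.2% and 26.7% against 26.0% and 28.1%. It includes a long upstream region, chr5:124435638-124438974, at 90.6% and 87.4% against 86.7% and 88.4%. The region over that start read 0% and 0% against 0% and 3.57%. Over the gene, Kmt5a had 37.5% and 39.0% against 35.7% and 36.7%, the second largest positive difference of a member gene at 2.08 points (adjusted p = 0.960). Dot1l, the H3K79 methyltransferase, averaged 62.8% and 61.8% against 59.6% and 62.5%, with overlap. One of its regions, chr10:80758122-80762215, read 66.6% and 72.5% against 57.8% and 60.3% (unadjusted p = 0.0388).

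Of the H3K9 methyltransferase genes 1 of 4 was higher, and of their starts 1 of 4. Suv39h1, at the levels given above, was 1.82 points higher with Cre, but its groups overlapped. Ehmt1 and Ehmt2, which form a complex that dimethylates H3K9, averaged 76.1 ± 0.315% and 61.9 ± 0.378% in the Tet2+f_Camk2aCre group, against 76.2 ± 0.103% and 62.6 ± 1.51% in the Tet2+f group (SD, n = 2 each). PRC2 writes H3K27 methylation. Among its subunits 3 of 4 genes were higher and 1 of 4 starts. Ezh2, the catalytic subunit of dividing cells, averaged 61.8% and 61.8% against 61.5% and 61.7%. Its relative Ezh1, which prevails in mature neurons, averaged 72.2% and 71.4% against 71.5% and 71.7%. Eed had 54.5% and 55.1% against 54.9% and 55.3%, and Suz12 67.2% and 66.6% against 65.6% and 66.9%. The groups were apart in Ezh2 by less than 1 point and overlapped in the other 3. The starts of Ezh1 and Ezh2 differed in level in every library, with windows at 27.6% and 28.2% against 27.5% and 28.7% in Ezh1, and at 0% and 0% against 0.267% and 0% in Ezh2.

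Of the demethylase genes, the KDM1 to KDM3 group had 3 of 6 higher and 3 of 6 starts higher, the KDM4 and KDM5 group 4 of 8 and 3 of 8, and the KDM6 group 2 of 2 and 1 of 2. The largest negative difference at any member start was that of Kdm5b, an H3K4 demethylase, at 14.7% and 14.8% in the Tet2+f_Camk2aCre libraries, against 18.7% and 18.2% in the Tet2+f libraries. The gap of -3.72 points exceeded the spread within either group (SD 0.0614 and 0.353 points, n = 2 each), and limma's p was 0.00726 unadjusted and 0.955 adjusted. The RefSeq window, chr1:134559928-134560227 on the plus strand, is shown because the border between a methylated and an unmethylated region falls within it, with 17 CpGs in its 300 bases:
Kdm5b start: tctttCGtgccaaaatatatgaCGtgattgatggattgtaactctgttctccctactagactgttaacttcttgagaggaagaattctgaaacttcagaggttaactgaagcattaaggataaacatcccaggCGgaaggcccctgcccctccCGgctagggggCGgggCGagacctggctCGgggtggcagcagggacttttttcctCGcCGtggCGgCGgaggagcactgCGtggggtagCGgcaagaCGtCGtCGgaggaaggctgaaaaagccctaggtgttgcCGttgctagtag

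The region covering the last 84 bases of that Kdm5b window read 0% and 0.286% in the Tet2+f_Camk2aCre libraries, against 0% and 0% in the Tet2+f libraries. The region upstream of it, which ends 38 bp before the start, read 43.9% and 40.6% against 48.7% and 53.2%, and the next one upstream 29.5% and 32.9% against 42.7% and 35.0%. Both had their groups apart in the direction of the mean (unadjusted p = 0.0701 and 0.121). As in Hdac1, the core was near 0% and the difference lay beside it. Over the gene Kdm5b averaged 67.4% and 68.0% against 68.4% and 67.5%.

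Kdm4a, an H3K9 and H3K36 demethylase, was 2.02 points higher over the gene, at 76.8% and 77.3% against 74.004% and 76.01%, with no overlap and an adjusted p of 0.960, and 1.02 points higher without Tet2+f replicate 1. Its region with the largest difference, chr4:118147248-118148480, read 55.6% and 51.3% against 29.8% and 46.4%, so most of that gap lay in Tet2+f replicate 1. Another Kdm4a region, chr4:118137780-118138298, read 61.7% and 69.9% against 51% and 60.6%. Kdm6b, an H3K27 demethylase induced by neuronal activity and inflammation, averaged 36.2% and 35.7% against 31.4% and 34.8% at its start (limma, unadjusted p = 0.165). The table assigns the 4 regions averaged there to the neighbouring gene Dnahc2 or to no gene, not to Kdm6b. Over the gene Kdm6b averaged 41.3% and 42.5% against 40.5% and 41.5%. Among the regions the table assigns to Kdm6b, 8 adjoining ones below 20% formed a stretch of 3580 bp inside the gene. Nearer the start, 6 regions with no gene named and 1 region of Kdm6b, from 43 to 7205 bp downstream, also averaged below 20%. Kdm1a, the H3K4 demethylase LSD1, averaged 56.7% and 56.6% against 56.6% and 57.3%. The X and Y relatives Kdm5c and Kdm5d averaged 66.4% and 68.1% against 66.5% and 68.0%, and 85.6% and 85.3% against 84.1% and 84.8%. Over the gene Kdm5c overlapped between groups, and in Kdm5d they were apart by 0.982 points (limma, adjusted p = 0.962). One Kdm5c region, chrX:152270737-152272471, read 61.3% and 59.2% against 77.9% and 66.2%, with groups apart (limma, unadjusted p = 0.0680, adjusted p = 0.937).

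Another 65 genes of related writers, erasers and partner proteins, listed with earlier results of these data known, gave 40 higher and 25 lower over the gene, and 38 higher and 27 lower at the start, with 0 past the test. Their median difference was 0.192 points over the gene, against 0.153 points for the histone-modifying enzyme genes and 0.0253 points for all genes. The shares higher were 61.5% over the gene and 58.5% at the start, against 51.1% of all genes and 50.8% of all starts. Of the 65, 2 reached an unadjusted p below 0.05 at the start, or 3.08%, against 5.14% of all starts. Ring1, a PRC1 subunit, had 5.11% and 5.002% in the Tet2+f_Camk2aCre libraries against 2.97% and 3.23% in the Tet2+f libraries, and Smyd1, a muscle methyltransferase, 92.5% and 91.2% against 88.98% and 85.7%.

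Without read counts in the table the depth of any level is unknown here, and without expression values the reduction of Tet2 was not checked. For lists of cell type markers, the median level at gene starts was 29.2% for CA1 pyramidal markers, 36.7% for dentate and CA3 markers and 23.1% for interneuron markers. It was 48.6% for astrocyte, 42.1% for oligodendrocyte, 72.1% for endothelial and 80.01% for microglial markers, so CA1 markers were below the glial and endothelial lists but not the lowest. Start levels followed CpG number over all genes, and the CpG number of these lists was not compared. The medians therefore cannot show which cells the tissue held. With Cre, starts were higher in 9 of 14 CA1, 3 of 9 dentate and CA3, 3 of 9 interneuron, 5 of 8 astrocyte, 6 of 9 oligodendrocyte, 3 of 6 endothelial and 2 of 7 microglial genes, against 50.8% of all starts. Over whole genes the counts higher were 10 of 14, 8 of 9, 7 of 9, 2 of 8, 4 of 9, 3 of 6 and 1 of 7 in the same order, against 51.1% of all genes. No marker gene or start passed the test at an adjusted p. The part of cell makeup in the results above was not tested.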

How the data were processed

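The genes, families and lists were chosen with earlier results of these data known. The submitters' processing notes name Bismark 0.19.0, Trim Galore 0.4.5, FastQC 0.11.5, edgeR and the build mm10, without roles. The authors deposited 1 percent methylation value for each region in each library. The way regions were drawn, and any minimum of coverage, is not given in the sources used here. Bisulfite sequencing does not separate 5-methylcytosine from 5-hydroxymethylcytosine, so a level is the sum of both.

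Libraries were grouped by title. Of 849172 regions, 158 lacked a value in a library and were left out. All regions that the table assigns to a gene were averaged for its gene mean. Gene starts, placed by RefSeq's genes on GRCm38.p6, used every region touching 2000 bp before to 500 bp after, with the strand from the deposited table, for 21838 genes. All 62 members matched RefSeq. Regions enter whole, so a long one can reach outside a start. Start windows came from a RefSeq table of the same build, and a window's level is the mean of its regions weighted by overlap. Levels were compared with limma (version 3.58.1, under R 4.3.3), after each level, as a share of 1, was turned into log2((level + 0.01) / (1 - level + 0.01)), with Benjamini-Hochberg adjustment at 0.05 over all features. In simulated data, 20, 40 or 60 points were added at 200 of 849014 regions. There limma gave the right sign at 99.5% or more of them and an unadjusted p below 0.05 at 87.5 to 97.5%. At the adjusted threshold it called 0% for each of these sizes, so a missed threshold does not show that the groups were alike. The changed regions had mean levels of 20 to 40%, so regions near 0% were not covered. With 2 libraries against 2, an exact two-sided permutation test of a single value cannot go below p = 0.333.

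Named were the 5 regions of smallest p in each direction, the 5 genes and 5 starts with the largest differences in each direction, starts at 50% or more, and a list of genes by role. Regions with a difference of 10 points or more were added after their values were seen. Alternatives were another scale, offset and variance prior, a replicate block, other region filters, weightings and start widths, centring, autosomes alone, and leaving out each library. A stricter threshold of 0.01 and Setdb1 and Setdb2 as added members were also run.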

Additional observations from a re-analysis of the deposited data

How the results depend on the processing

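No member passed the adjusted threshold under any alternative run: 0 regions under 12 alternatives (smallest adjusted p 0.0732 with a trended and robust prior, highest 0.958), 0 genes under 10 (0.722 to 1) and 0 gene starts under 9 (0.682 to 0.9998). For genes and starts, the offset of 0.05 and that prior were added after seeing the data. Of the 12 for regions, a threshold of 0.01 and counting Setdb1 and Setdb2 as members reused the main fit. With 0 calls over all regions there, neither could add a call. The value of 0.0732 was that of the Kmt2c region over its start. With libraries left out one at a time the mean difference over member regions ran from 0.0459 (without Tet2+f replicate 1) to 0.227 points (without Tet2+f replicate 2), beside 0.0706 with regions weighted by length, and the share of higher regions from 48.1 to 50.8%. Of 71 named results, 14 changed sign in at least 1 of 449 alternative values, all of them with a library left out and none past the threshold. In points, Tet2+f_Camk2aCre minus Tet2+f, their gene means then ran from -0.253 to 2.66 for Dot1l, -0.316 to 0.129 for Ehmt1, -1.74 to 0.395 for Ehmt2, -0.185 to 0.600 for Ezh1, -0.831 to 0.382 for Hdac9, -0.652 to 0.00430 for Kdm1a, -0.877 to 0.821 for Kdm5c, -0.197 to 0.448 for Kdm6a, -0.0377 to 0.796 for Kmt2a, -0.492 to 0.147 for Setd2, -0.357 to 0.845 for Setd5 and -0.852 to 0.373 for Sirt1, and their starts from -1.52 to 6.09 for Hdac4 and -5.34 to 1.51 for Kat5. Another 36 kept their sign but changed in size by over 1.5 times with a library left out, none past the threshold. The cause was not tested. No effect shared by replicate number was seen across regions. The differences between replicates 1 and 2 correlated between the groups at 0.00648 over all regions and 0.0198 over member regions. A fit with the replicate block called 0 regions, genes or starts. The labels do not say whether libraries were paired, and a low correlation cannot show that they were not. A coverage minimum was not run because depth is unknown here, which also limits how firmly a level near 0% or 100% can be read.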
